A study of Caenorhabditis elegans with 2 samples.

Results

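The cytosolic ribosomal protein genes of Caenorhabditis elegans were taken as every protein-coding gene of the WBcel235 annotation whose name starts with rpl-, rps- or rla-. The rule found 81 of 19973 protein-coding genes, 50 for the large subunit (rpl and rla) and 31 for the small subunit (rps). The data were ChIP-seq peak lists for CEH-82, a homeodomain protein that binds DNA, carried as an eGFP fusion and measured in whole L2 larvae of mixed sex. All animals were of strain OP212, which carries unc-119(ed3) on chromosome III and the transgene array ddEx58. Both samples, biological replicates 1 and 2, form 1 group, and the labels name no other genotype, stage or treatment. An array named Ex is extrachromosomal, so animals or cells may lose it, and it can hold many copies of the transgene. Tissues were not separated, so a region cannot be assigned to a cell type, and the labelled stage and tissue could not be checked against marker expression in peak lists.

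Ribosomal proteins join ribosomal RNA to build the large subunit, which forms peptide bonds, and the small subunit, which decodes the message. Their genes are scattered over all chromosomes, yet every cell needs the products in matched amounts. In C. elegans many of them lie head to head with another gene, so that the starts face away from each other across a shared upstream region. Others sit downstream in operons, where an upstream promoter serves several genes. Some hold small nucleolar RNA (snoRNA) genes in their introns, whose products guide chemical modification of ribosomal RNA. The 5′ ends of many worm messages are replaced by trans-splicing, so an annotated gene start can lie downstream of the site where transcription begins.

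The windows below are the 201 bp around the summit at 5 of the bound genes, in the direction of the ribosomal protein gene, on build WBcel235 (ce11) from the RefSeq assembly. They were chosen for a strong signal at a promoter with no divergent neighbour (rpl-35), for a summit shared with a head-to-head coding gene (rpl-20, rps-1 and rps-23) and for a member of a paralogue pair on the X chromosome (rpl-11.2). Capitals mark the first element, TACCGTA on either strand (TACGGTA on the other), and the second element, GGCCTA on either strand (TAGGCC on the other).
rpl-35 (III:7854582-7854782, plus strand): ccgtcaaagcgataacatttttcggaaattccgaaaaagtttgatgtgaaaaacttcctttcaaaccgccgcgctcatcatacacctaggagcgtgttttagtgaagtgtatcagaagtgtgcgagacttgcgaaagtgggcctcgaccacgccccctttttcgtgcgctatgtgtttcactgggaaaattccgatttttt
rpl-20 (IV:4749974-4750174, minus strand): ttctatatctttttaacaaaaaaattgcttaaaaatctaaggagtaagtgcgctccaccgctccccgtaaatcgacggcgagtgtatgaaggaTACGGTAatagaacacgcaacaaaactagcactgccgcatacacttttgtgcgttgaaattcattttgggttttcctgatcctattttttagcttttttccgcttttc
rps-1 (III:4475557-4475757, plus strand): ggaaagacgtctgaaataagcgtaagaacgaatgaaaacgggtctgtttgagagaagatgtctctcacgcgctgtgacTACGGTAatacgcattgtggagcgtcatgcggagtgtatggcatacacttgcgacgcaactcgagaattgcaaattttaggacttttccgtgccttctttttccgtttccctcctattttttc
rps-23 (IV:12391218-12391418, minus strand): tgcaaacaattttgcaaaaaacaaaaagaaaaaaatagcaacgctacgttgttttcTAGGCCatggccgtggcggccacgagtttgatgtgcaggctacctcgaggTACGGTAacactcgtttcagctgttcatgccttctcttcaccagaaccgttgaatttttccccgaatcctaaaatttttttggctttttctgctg
rpl-11.2 (X:2242867-2243067, minus strand): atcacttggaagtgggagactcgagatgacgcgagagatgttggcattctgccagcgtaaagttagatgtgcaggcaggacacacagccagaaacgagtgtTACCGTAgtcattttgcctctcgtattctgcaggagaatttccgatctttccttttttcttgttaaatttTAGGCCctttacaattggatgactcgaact
The first element lay in 4 of these 5 windows, its middle 19 bp from the summit or nearer in each. These 5 are no representative pick, since it lay in 12 of the 36 summit windows of all bound genes. The windows of rpl-15 and rps-12, whose head-to-head summits were stronger than those of rps-1 and rps-23, lacked it and are not shown. The window of rpl-35 held neither word, and its nearest second element lay 250 bp from the summit toward the gene. How both words were chosen, and how often they occurred elsewhere, is given with the motif counts.

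A gene was called bound when the summit of a reproducible peak lay in its window, from 1000 bp upstream to 200 bp downstream of the gene start. Reproducible peaks are the 537 regions that passed the authors' irreproducible discovery rate (IDR) threshold, in a list labelled optimal. They come out of 9070 regions listed for both replicates pooled. The word reproducible does not mean that a peak was listed in each replicate. Of the 39 bound genes below, 36 had a matching summit in the replicate 1 list. By this rule 39 of 81 ribosomal protein genes (48.1%) were bound, against 2.54% of all protein-coding genes (507 of 19973). Of the 61 ribosomal protein genes whose window held a pooled summit, 39 were bound, against 16.4% of all protein-coding genes with such a summit. A pooled summit itself was present at 75.3% of the ribosomal protein genes and at 15.5% of all protein-coding genes. The pooled list includes background, with q-values up to 0.96, so a pooled region alone does not show binding. Each bound gene had 1 reproducible summit, and the 39 genes rested on 36 peaks, because 3 peaks each lay in the windows of 2 ribosomal protein genes.

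Taking the 537 strongest regions of each replicate list alone gave a lower count in both, and the lower one in replicate 1. With replicate 2 left out, 23 genes were bound (28.4%), against 2% of all protein-coding genes. With replicate 1 left out, 34 genes were bound (42.0%), against 2.4% of all protein-coding genes. The full replicate lists, which hold 30000 regions each and so include background, had a summit at 53 and 68 of the 81 genes in replicates 1 and 2, against 37.2% and 36.9% of all protein-coding genes.

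The signal value is the authors' own score for a region, with no stated scale. It was used to rank regions within a list, and its medians and the correlations between replicates describe this score only. At the 39 bound genes it ran from 21.1 to 169 with a median of 31.8, against a median of 28.9 at the other 468 bound coding genes. Ribosomal protein promoters held 36 of the 537 reproducible peaks (6.70%), 5 of the strongest 20 and 14 of the strongest 100.

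The strongest was rpl-3, whose product reaches toward the peptidyl transferase centre. Its peak had a signal value of 169 in the pooled list, 62.2 in replicate 1 and 108 in replicate 2, with rank 3 among all reproducible peaks and rank 4 in each replicate list. The peak of rpl-35, whose product sits near the exit of the nascent peptide, had a pooled value of 139 and replicate values of 43.7 and 92.4, rank 9 in all 3 lists. At rpl-15 the pooled value was 114 and the replicate values 38.9 and 73.6. At rpl-20 the pooled value was 106, with 25.9 in replicate 1 and 78.1 in replicate 2. These 4 large subunit genes stood above every small subunit gene in the pooled list.

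Among the small subunit genes rps-12 led with a pooled value of 92.8 (29.3 and 61.6 in replicates 1 and 2), followed by rps-1 with 83.9 (26.6 and 57.2). The pooled values were 59.6 for rps-28, 59.4 for rps-23, whose product lines the decoding centre, 55.4 for rps-15 and 55.1 for rps-20. These 6 genes ranked between 18 and 85 in replicate 2 and between 24 and 141 in replicate 1. The others among the 15 strongest were rpl-7A (49.6), rpl-11.2 (48.8), rpl-12 (47.0), whose product forms the base of the ribosomal stalk, rps-26 (44.3) and rps-19 (41.9). The last of these, rps-19, ranked 83 in replicate 2 but 390 in replicate 1.

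**Figure D1:**
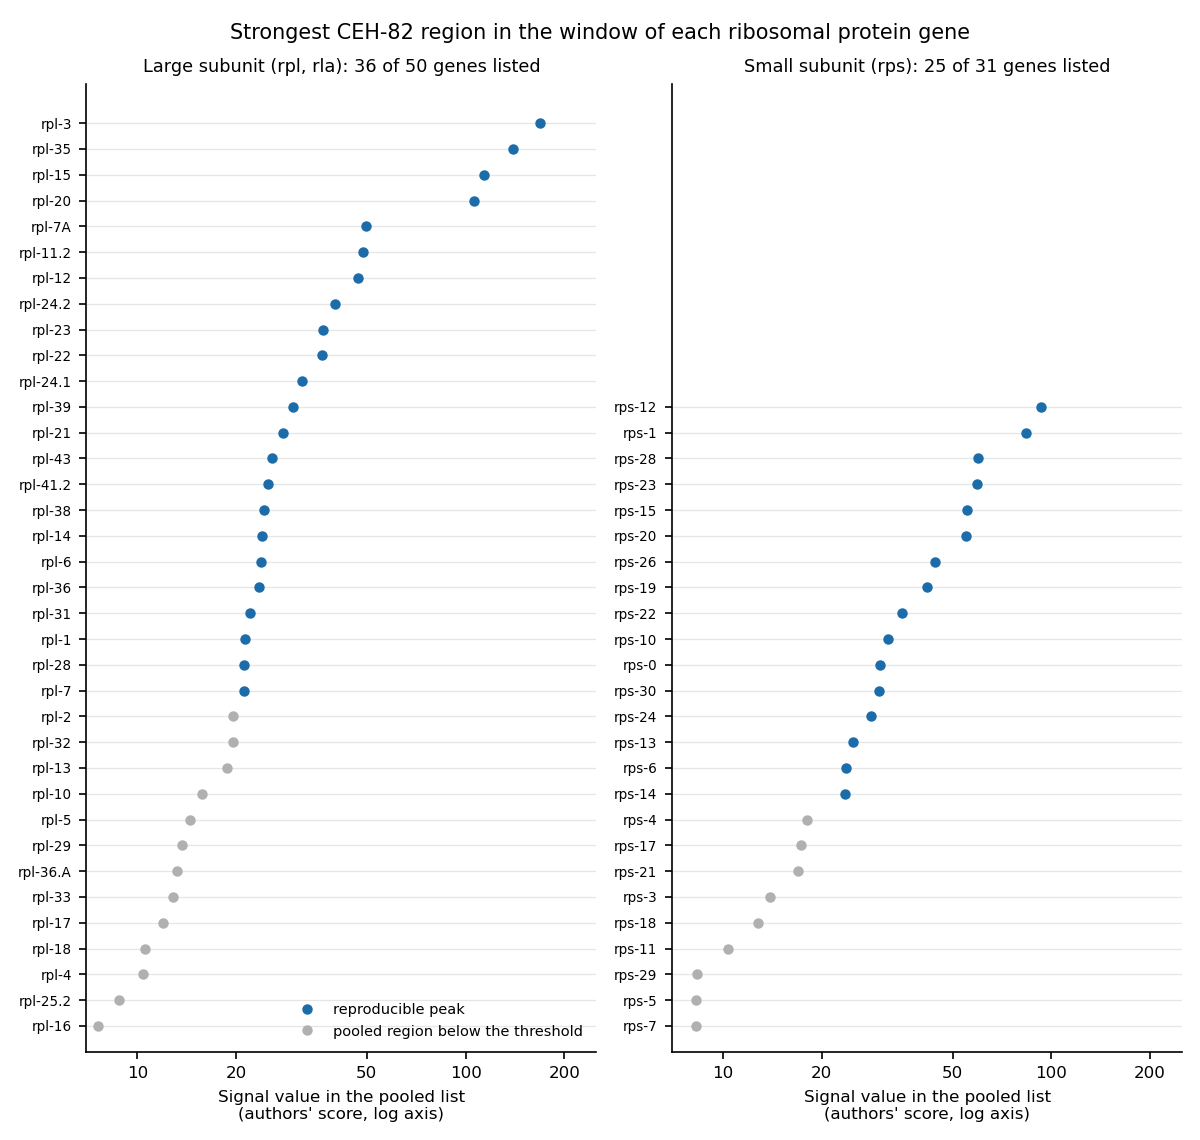
Signal value of the strongest pooled region in the window of each ribosomal protein gene (x axis, the authors' score, log scale), for the 36 large subunit genes (left) and the 25 small subunit genes (right) that have such a region; blue points are genes with a reproducible peak and grey points genes whose region fell below the threshold. The values of the bound genes spread from 21.1 to 169, and the 4 highest belong to the large subunit.

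The large subunit had 23 of 50 genes bound (46.0%) and the small subunit 16 of 31 (51.6%), a difference of -5.61 percentage points. The median signal value at bound genes was 29.8 (21.1 to 169) for the large subunit and 38.5 (23.5 to 92.8) for the small subunit. In replicate 1 alone the shares were 22% of large subunit genes and 38.7% of small subunit genes. In replicate 2 alone they were 38% of large and 48.4% of small subunit genes. The lower share of the large subunit thus appeared in each replicate list, but it depended on how shared peaks were counted. When each peak was given only to the coding gene with the nearest start, 32.0% of large subunit genes and 16.1% of small subunit genes were bound, a difference of 15.9 points in the other direction. By that rule 21 ribosomal protein genes were bound in all, against 1.73% of all protein-coding genes. Genes are not replicates of a condition, and no test was made of the difference between subunits.

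The 3 genes of the stalk proteins, rla-0, rla-1 and rla-2, had no pooled summit in the window. Of these, rla-2 had a weak region in replicate 2 (signal value 4.12, rank 15053), and rla-0 and rla-1 were in neither replicate list. The stalk recruits translation factors to the large subunit.

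Replicates 1 and 2 ranked the strongest genes alike and the weaker ones less so. Over the 39 bound genes, a replicate summit lay within 100 bp of the reproducible summit for 36 genes in replicate 1 and for all 39 in replicate 2. The summit was among the 537 strongest of replicate 1 for 23 genes (59.0%), of replicate 2 for 34 genes (87.2%) and of both for 22 genes (56.4%). For the other 501 reproducible peaks these shares were 55.9%, 81.6% and 43.9%. The latter are counted per peak, whereas the 39 genes rest on 36 peaks. Across the 33 peaks listed in both replicates, the signal values had a Spearman's rho of 0.76 and a Pearson's r of 0.85 on the log2 scale, as a description across peaks of the same libraries.

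The 3 bound genes with no matching summit in replicate 1 were rpl-43, rpl-41.2 and rpl-38. In replicate 2 they had signal values of 19.99, 19.2 and 19.2 and ranks of 256, 283 and 284. The widest gaps among listed genes were at rpl-14 (rank 6657 in replicate 1 and 333 in replicate 2), rps-6 (3715 and 359), rpl-22 (3271 and 101) and rpl-23 (2132 and 137). The product of rps-6 is the ribosomal protein that S6 kinase phosphorylates. A further 5 genes were outside the strongest regions of replicate 1 only, namely rps-22 (rank 787), rpl-6 (907), rpl-21 (1073), rps-13 (1271) and rpl-31 (1808). In the other direction, rpl-1 ranked 424 in replicate 1 and 862 in replicate 2.

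Outside the strongest 537 of both replicates were rpl-7 (ranks 1084 and 580), rpl-28 (1766 and 640) and the pair rpl-36 and rps-14, which share a peak (898 and 626). Their pooled values, 21.1, 21.2 and 23.5, lay near the lower end of the reproducible list, which starts at 21.1. Counted over all bound genes, 12 were among the strongest 537 of replicate 2 only and 1 among those of replicate 1 only.

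**Figure D2:**
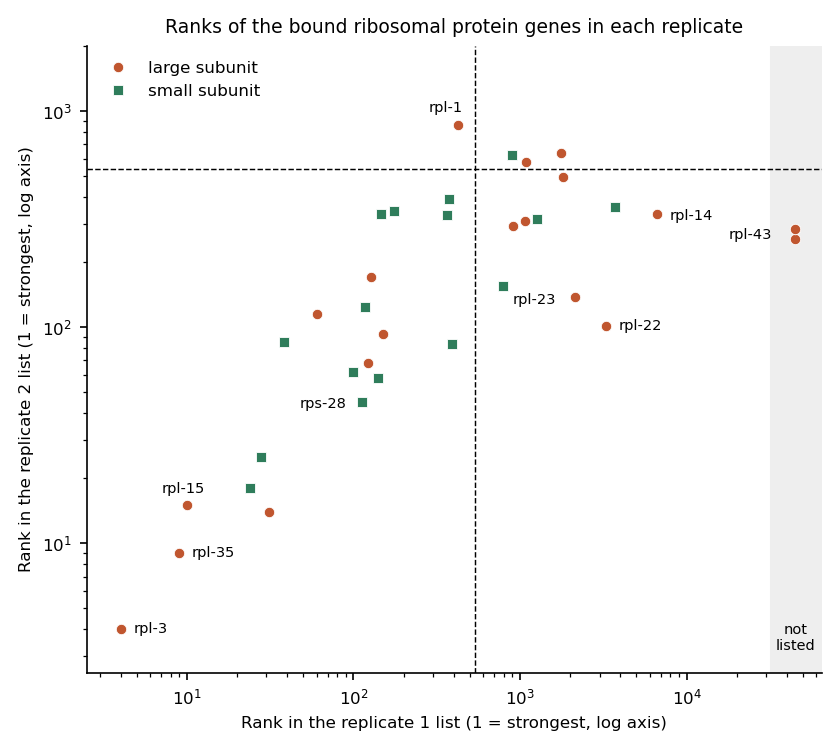
Rank of the summit of each bound ribosomal protein gene in the replicate 1 list (x axis) and the replicate 2 list (y axis), both log axes with 1 the strongest; orange circles are large subunit genes, green squares small subunit genes, dashed lines mark rank 537 and the grey band holds genes with no summit within 100 bp in replicate 1. The strongest genes lie near the diagonal, and 12 genes are inside the line for replicate 2 only, against 1 for replicate 1 only.

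The 42 unbound genes fell into 22 with a pooled region below the threshold, whose median signal value was 13.0, and 20 with no pooled summit. The highest were rpl-2 (19.6, rank 605), rpl-32 (19.5, rank 612), rpl-13 (18.7, rank 654), rps-4 (18.0, rank 704) and rps-17 (17.3, rank 773). The lowest bound gene, rpl-7, had 21.1 at rank 534, so rpl-2 and rpl-32 lay just outside the threshold. In replicate 2 the value was 11.23 at rpl-2 and 13.9 at rpl-7, and the strongest replicate 1 region in the window of rpl-2 lay at another summit (-231 bp, against -420 bp in the pooled list). At rpl-13 replicate 1 listed only a weak region (2.94, rank 19648), against 8.85 at rank 1544 in replicate 2. The products of rpl-11.2 and rpl-5 bind the smallest ribosomal RNA in a shared particle, and of these genes rpl-11.2 was bound and rpl-5 was not (14.4, rank 1091).

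Of the 4 paralogue pairs that share a name stem and a numbered suffix, 2 differed in their call. Of the genes for the L11 protein, rpl-11.2 had a reproducible peak of 48.8 on the X chromosome, and rpl-11.1 on chromosome V had no region in any list. Of the L41 genes, rpl-41.2 was bound (25.0), and rpl-41.1 had only a replicate 2 region (4.82, rank 10003). Both genes with the name stem rpl-24 were bound, rpl-24.2 at 40.1 and rpl-24.1 at 31.8. A shared stem does not show that they encode the same protein, and the name rule did not check products. Neither L25 gene was bound, with a pooled value of 8.78 at rpl-25.2 and only a replicate 2 region (3.62) at rpl-25.1. The names rpl-7 and rpl-7A, and likewise rpl-36 and rpl-36.A, belong to different proteins. Both rpl-7 (21.1) and rpl-7A (49.6) were bound, and of the other pair rpl-36 was bound (23.5) and rpl-36.A was not (13.2).

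The 39 summits lay upstream of the gene start in a narrow range. The median position was -296 bp, with -302 bp for the large subunit and -268 bp for the small subunit, and the extremes were -48 bp at rpl-12 and -729 bp at rpl-43. Between -400 and -200 bp lay 29 of the 39 summits, 38.5% from -400 to -300 bp and 35.9% from -300 to -200 bp. At the other 468 bound coding genes the median was -239.5 bp, and those bins held 12.2% and 16.9%. These other genes include partners bound through the same summits, at 26 of the 36 ribosomal protein peaks. The same holds wherever the other bound coding genes are compared. The most filled bin of the other genes was -200 to -100 bp (26.5%), which held 10.3% of the ribosomal protein summits. All 39 summits were upstream of the start, as were 96.4% of the others. Measured from the start codon instead, the median was -307 bp. The positions from gene starts are distances to annotated starts, which may lie downstream of where transcription begins.

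Most of these summits, 31 of 39, were in intergenic sequence, and 7 overlapped only a noncoding gene. The exception was rpl-24.2, whose summit lay in an intron of C03D6.1. The summit windows of the ribosomal protein peaks had a median GC content of 42.8%, against 46.8% for the other reproducible peaks and 37.8% for the 8525 remaining pooled regions. In the promoter from 250 bp before to 50 bp after the start, the median GC content was 32.7% for bound genes and 33.2% for unbound genes.

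**Figure D3:**
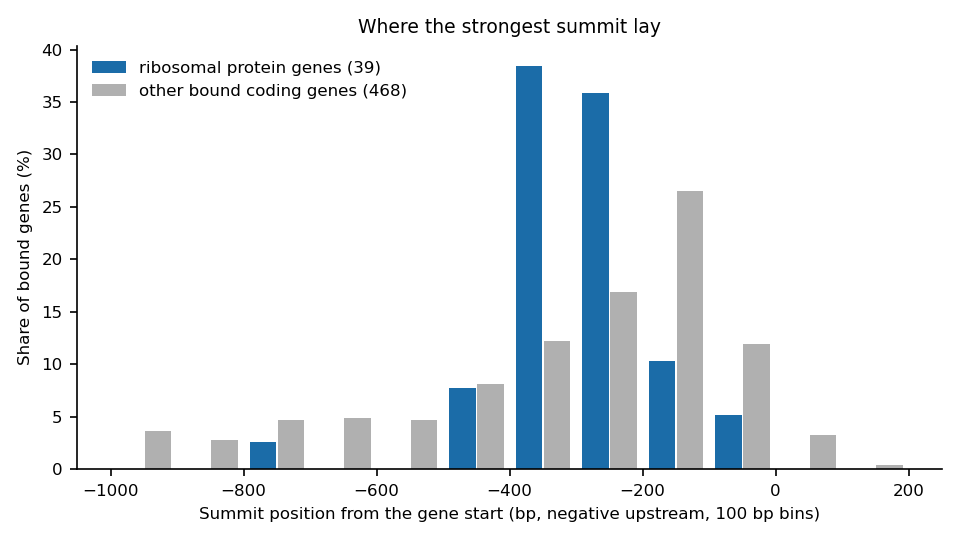
Share of bound genes (y axis, percent) whose strongest summit fell in each 100 bp bin from the gene start (x axis, negative upstream), for the 39 bound ribosomal protein genes (blue) and the 468 other bound coding genes (grey). The blue bars reach 38.5% and 35.9% between -400 and -200 bp, and the tallest grey bar is 26.5% between -200 and -100 bp.

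Shared upstream regions were common at these genes. A coding gene on the other strand started within 1000 bp upstream of 48 of the 81 ribosomal protein genes (59.3%), against 17.6% of other coding genes. Of those 48, 28 were bound (58.3%), against 11 of the 33 without such a neighbour (33.3%). Among other coding genes 6.59% (230 of 3491) were bound with such a neighbour and 1.45% (238 of 16401) without. A summit between such neighbours can count for both genes. In both arrangements the bound share was higher for the ribosomal protein genes, a description with no test.

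The reproducible summit of 28 bound genes (71.8%) lay in the window of a coding gene on the other strand, against 56.8% of other bound coding genes. With noncoding neighbours counted, the number was 30 (76.9%, against 64.3%). By subunit, 14 of 23 bound large subunit genes (60.9%) and 14 of 16 bound small subunit genes (87.5%) had such a coding neighbour. In 3 cases the partner was itself a ribosomal protein gene, and each of these pairs joined a large with a small subunit gene. They were rpl-24.1 with rps-10 on chromosome I (starts 610 bp apart, pooled value 31.8), rpl-39 with rps-30 on chromosome V (499 bp, 29.8) and rpl-36 with rps-14 on chromosome III (663 bp, 23.5). The summit between rpl-39 and rps-30 was nearly central, at -235 bp from rpl-39 and -264 bp from rps-30. It was nearer to rpl-24.1 (-246 bp) than to rps-10 (-364 bp), and nearer to rps-14 (-253 bp) than to rpl-36 (-410 bp).

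At the other 22 bound genes with a coding partner, the summit was nearer to the start of the partner at 15 and nearer to that of the ribosomal protein gene at 7. At rps-12 the summit was -170 bp from the ribosomal protein gene and -123 bp from ska-3, a spindle and kinetochore gene. At rpl-20 it was at -296 bp, against -166 bp from Y17G9B.5, and at rps-19 at -271 bp, against -174 bp from hsr-9. The summit at rps-26 was -391 bp from that gene and -66 bp from tmem-107, a gene of the ciliary transition zone, and at rps-0 it was at -305 bp, against -68 bp from rbg-3. Those of rpl-31 (-248 bp) and sac-2 (-57 bp), rpl-43 (-729 bp) and Y48B6A.1 (-192 bp), rpl-28 (-330 bp) and mrpl-49 (-189 bp), and rps-6 (-347 bp) and usp-3 (-184 bp) were placed likewise. At rpl-22 (-274 bp) the partner was the securin gene ify-1 (-163 bp), at rps-20 (-242 bp) ekl-4 (-155 bp), and at rps-22 (-157 bp) the translesion polymerase gene polh-1 (-109 bp).

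In contrast, the ribosomal protein gene was the nearer one at rpl-12 (-48 bp), which faces lin-54 (-345 bp), a gene for the DNA-binding subunit of the DREAM complex. The same held at rpl-7A (-85 bp) with set-21 (-169 bp), rps-1 (-261 bp) with ifet-1 (-507 bp), a regulator of translation in the germ line, rpl-15 (-351 bp) with K11H12.8 (-463 bp), rpl-1 (-287 bp) with Y71F9AL.9 (-337 bp) and rpl-7 (-337 bp) with rab-11.1 (-644 bp), which encodes a small GTPase of recycling endosomes. At rps-23 (-265 bp) with dpm-3 (-269 bp), rps-15 (-397 bp) with F36A2.9 (-384 bp), rpl-21 (-321 bp) with C14B9.10 (-304 bp) and rps-13 (-195 bp) with nfx-1 (-187 bp) the distances to both starts differed by 17 bp or less. The lists do not show to which gene of a pair a summit relates.

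Of the 36 peaks, 6 lay in the window of 1 gene only, those of rpl-3, rpl-35, rpl-24.2, rpl-41.2, rpl-38 and rpl-14. The strongest ribosomal protein peaks, at rpl-3 and rpl-35, were thus at promoters with no divergent neighbour. At 26 of the 36 peaks the summit also lay in the window of a coding gene that encodes no ribosomal protein of the rule.

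**Figure D4:**
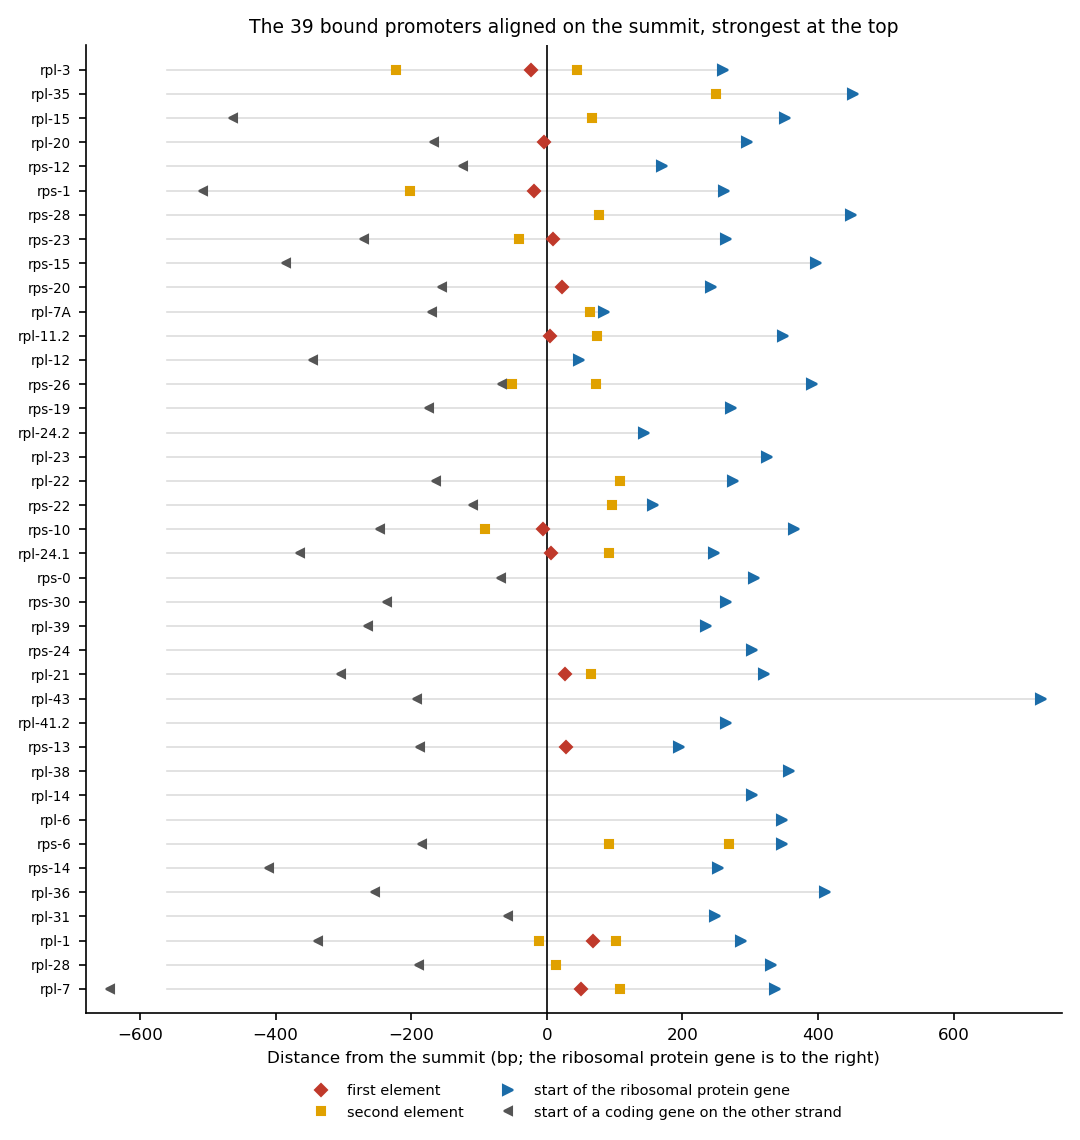
The 39 bound promoters aligned on the summit (x axis, distance in bp, with the ribosomal protein gene to the right), ordered by signal value from top to bottom; blue triangles mark the start of the ribosomal protein gene, grey triangles the start of the nearest coding gene on the other strand, red diamonds the first element and yellow squares the second element, both searched in the 600 bp upstream of the start. The red diamonds lie between -24 and 68 bp of the summit line.

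The opposite arrangement had no bound gene. In 9 ribosomal protein genes, rpl-16, rla-1, rpl-19, rpl-25.1, rpl-27, rps-16, rps-2, rps-17 and rps-7, another gene on the same strand ended within 500 bp upstream. Of these 9, 0 were bound, against 39 of the other 72 (54.2%). Only rpl-16, rps-17 and rps-7 among them had a pooled region (7.57, 17.3 and 8.25). Among other coding genes the same arrangement had 1.39% bound (50 of 3606), against 2.57% (418 of 16286) without it. The 500 bp limit was chosen after the values were seen. Just beyond it lay rps-8 (511 bp), rps-4 (533 bp) and rpl-13 (540 bp), all unbound, and rpl-14 (544 bp), which was bound. A short same-strand distance is typical of genes inside operons, but operon membership was not read from an annotation here.

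**Figure D5:**
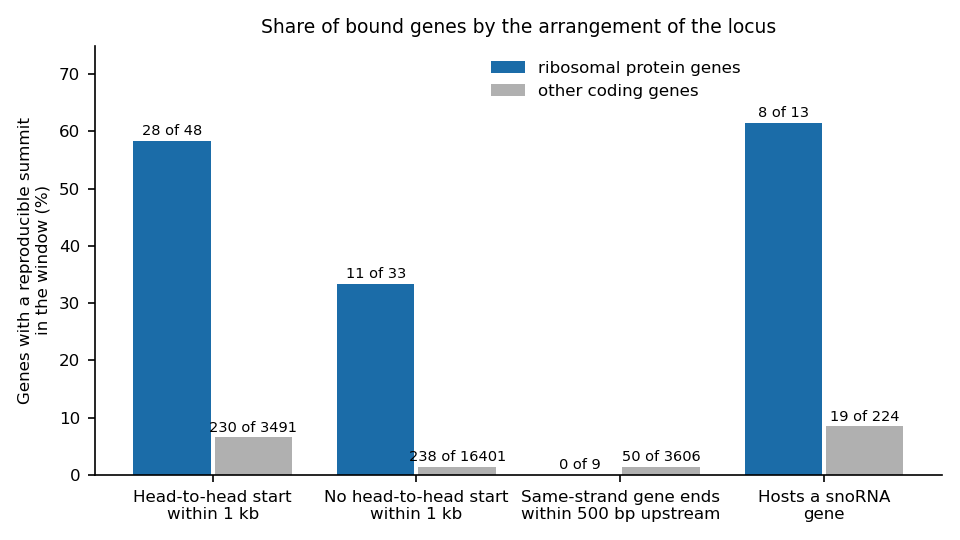
Share of genes with a reproducible summit in the window (y axis, percent), with the counts above each bar, for ribosomal protein genes (blue) and other coding genes (grey) in 4 arrangements of the locus that overlap in part. The blue bars stand at 58.3%, 33.3%, 0% and 61.5%, and no grey bar exceeds 8.48%.

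Intronic snoRNA genes were present in 13 of the 81 ribosomal protein genes (16.05%), against 1.13% of other coding genes. They held 19 snoRNA genes, all in introns and on the strand of the host, with starts 80 to 953 bp downstream of the host's start. Of the 13 hosts 8 were bound (61.5%), against 31 of the 68 ribosomal protein genes without a snoRNA gene (45.6%) and 8.48% of other coding hosts (19 of 224). Large subunit genes made up 8 of the hosts and small subunit genes 5. The difference between hosts and others was not tested, and 11 of the 13 hosts also had a head-to-head coding start within 1000 bp.

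Because the introns lie close to the start, a host's summit usually fell in the snoRNA gene's own window too. This held for 12 of the 13 snoRNA genes at bound hosts. They were K11H12.12 and K11H12.13 in rpl-15, F54E7.10 and F54E7.11 in rps-12, Y24D9A.9 and Y24D9A.10 in rpl-7A, F28D1.13 in rps-23, D1007.20 in rpl-24.1, C16A3.11 in rps-13, R151.11 and R151.12 in rpl-6 and F53G12.12 in rpl-7. The exception was R151.13 in rpl-6, with the summit at -1300 bp from its start. The nearest was F54E7.10, 80 bp inside rps-12, with the summit at -250 bp from the snoRNA gene and -170 bp from the host. The unbound hosts were rpl-2, rpl-26, rpl-4, rps-29 and rps-4, of which all but rpl-26 had a pooled region (19.6, 10.4, 8.31 and 18.0 for rpl-2, rpl-4, rps-29 and rps-4). At rps-26 the snoRNA gene F39B2.14 lay outside the gene, on the strand of tmem-107, with the summit at -127 bp.

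Sequence words in the 201 bp summit windows were counted on both strands, over the 36 windows of ribosomal protein peaks and the windows of the 501 other reproducible peaks. The 6-mers with the largest excess in share were AAAAAA (32 of 36 windows, against 210 of 501), CCTAAA (18, against 31), ACCGTA (17, against 50), AAATCG (21, against 115) and CGTTGA (13, against 24). Since they were picked for this excess, the counts describe the windows and support nothing further. The GAGA-type word and CTGCGTCT were less common here. GAGAGAGA was in 0 of 36 windows, against 15.2% of the other peaks, and CTGCGTCT in 2 of 36, against 22.4%. The homeodomain core words TAATTA and CAATTA were each in 1 of 36 windows, against 5.99% and 6.59% of the other peaks. The other motifs, given as share in ribosomal protein windows minus share in the other peaks, were CAGCTG (-2.43 percentage points), CACGTG (-2.21 points), ATCGAT (-3.05 points), GGGCGG (0.13 points), TATAAA (-0.85 points), CCAAT (0.83 points), TTTCAG (3.10 points) and TTTTTTTT (2.91 points).

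After these counts were seen, the words around ACCGTA and CCTAAA were extended, which gave the first element TACCGTA and the second element GGCCTA, with GGCCTAAA as its longer form. The first element was in 12 of 36 windows (33.3%), against 4.59% of the other reproducible peaks and 2.43% of the remaining pooled regions. The second was in 14 of 36 (38.9%), against 4.99% and 3.80%. GGCCTAAA was in 11 of 36, against 4 of 501 and 70 of 8525. These shares follow from how the words were found and are no test.

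In the 500 bp upstream of the start, a region that overlaps the windows the words were chosen in, the 6-mer ACCGTA was present at 18 of 39 bound genes (46.2%) and 18 of 42 unbound genes (42.9%), against 25.6% of other bound coding genes and 13.9% of all coding genes. Its extended form TACCGTA was present at 12 bound genes (30.8%) and 5 unbound genes (11.9%), against 11.3% and 7.24%. GGCCTA was present at 18 bound genes (46.2%) and 15 unbound genes (35.7%), against 10.04% and 7.66%. ACCGTA thus had like counts at bound and unbound ribosomal protein genes, and the wider gap of TACCGTA belongs to a word extended from windows of bound genes. These are counts of genes, and the words between rpl-24.1 and rps-10 count for both. Among the motifs fixed before the 6-mer ranking, TTTTTTTT was present at 48.7% of bound and 21.4% of unbound genes, against 49.4% of all coding genes. Its share at bound genes was thus near that of all coding genes. GGGCGG was present at 17.9% and 2.38%, against 10.9% of all coding genes. The order was reversed for TATAAA (43.6% and 64.3%, against 54.0% of all coding genes) and CAATTA (23.1% and 42.9%, against 38.05%). These gaps depended on the region. In the promoter from 250 bp before to 50 bp after the start, TATAAA was present at 28.2% of bound and 26.2% of unbound genes. The shares there were 10.3% and 23.8% for CAATTA, 25.6% and 9.52% for TTTTTTTT, and 7.69% and 0% for GGGCGG. In the 500 bp upstream the other fixed motifs had narrower gaps, and none was tested. By subunit, GGCCTA was present at 40% of large and 41.9% of small subunit genes. At the 70 mitochondrial ribosomal protein genes the counts were 2 for TACCGTA and 7 for GGCCTA. The unbound genes with the first element in the 600 bp upstream were rpl-33, rpl-5, rpl-18, rpl-34 and rps-17.

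The words differed in where they lay. In 10 of the 12 ribosomal protein windows that held it, the first element was within 30 bp of the summit, with a median distance of 21 bp either way. The placement at the other reproducible peaks was alike, with 17 of 23 within 30 bp and a median of 20 bp. The second element was within 30 bp in 3 of 14 ribosomal protein windows (median 63.5 bp), against 11 of 25 at the other peaks (median 33 bp). At the remaining pooled regions the median distance was 47 bp for the first element and 45 bp for the second. Counted over the 18 bound genes that had it upstream, the second element lay within 100 bp of the summit at 14. It was on the side toward the gene at 10 of these 14. With that side counted as positive, the median offset was 64.5 bp (range -91 to 96 bp). The word between rpl-24.1 and rps-10 counts for both genes here, at 92 bp and -91 bp. Between the elements the distance from the first to the second, counted toward the gene, was 34 bp at rpl-1, 38 bp at rpl-21, 58 bp at rpl-7, 69 bp at rpl-3, 70 bp at rpl-11.2 and 86 bp at rpl-24.1. It was -50 bp at rps-23 and -183 bp at rps-1. The rps-10 value of -85 bp comes from the same words as that of rpl-24.1, read from the other side. At the unbound rpl-33 it was 69 bp. The spacing thus varied in length and in order.

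Other genes of the ribosome gave a range. Outside the name rule, ubl-1, which encodes a small subunit protein fused to a ubiquitin-like domain, was bound (25.5, rank 351, summit at -200 bp). The ubiquitin fusion gene ubq-2 and rack-1, which encodes a scaffold on the small subunit, had pooled regions of 10.7 and 8.59 and were unbound. Of 70 mitochondrial ribosomal protein genes 4 were bound (5.71%), namely mrpl-28 (40.4), mrps-7 (32.2), mrpl-12 (26.2) and mrpl-49 (21.2), the last through the summit it shares with rpl-28. Of 29 matched genes for ribosomal RNA synthesis and ribosome assembly 3 were bound (10.3%), namely rbd-1 (36.3), fib-1 (22.5), which encodes the snoRNA-guided methylase fibrillarin, and nol-10 (21.8). The share in the cytosolic list, 48.1%, was above both, a description with no test.

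Bound ribosomal protein genes were found on every chromosome. The share was 66.7% on III (12 of 18, against 3.74% of other coding genes there), 52.0% on I (13 of 25, against 3.01%), 50% on V (4 of 8, against 1.36%), 38.9% on IV (7 of 18, against 2.33%) and 20% on II (2 of 10, against 2.27%). On X, 1 of 2 was bound, rpl-11.2, against 2.27% of other coding genes there. The small numbers per chromosome give no order beyond this description.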

How the data were processed

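Peak lists of both replicates, of both replicates pooled and after IDR thresholding were used as deposited on build ce11, which names the assembly WBcel235. A row gives an interval with its summit, a score the authors deposited as their signal value (scale not stated), and a −log10 q-value, as the deposited peak format defines it. In the thresholded list the q-values ran from 0.00117 to 0.00349, and in the pooled list from 0.00117 to 0.96. Per the deposited file names, the pooled and replicate lists are peaks with background that served as input to IDR. The sources used here name no aligner, peak caller or treatment of the control. Without read counts in the lists, sequencing depth is unknown and no counting interval is given.

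Summits were assigned with Ensembl release 115 gene starts, in windows of 1000 bp upstream to 200 bp downstream, with Python 3.11.15, pandas 2.3.3 and numpy 2.4.6. Sequence came from the RefSeq copy of WBcel235. Words were searched on both strands in 201 bp centred on the summit, in the 500 or 600 bp upstream and in promoters from 250 bp before to 50 bp after the start. Assignment and the 6-mer ranking were tested on simulated data with known answers. A member's strongest summit was used, and a replicate summit matched within 100 bp.

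The members, gene lists, motifs and alternatives were chosen with earlier results of these data known. The first and second element, the 500 and 600 bp regions and the same-strand limit were added after the values were seen. Named with values are the 15 strongest bound genes, bound genes outside the strongest regions of a replicate, the 5 strongest unbound genes, name paralogues, and genes with a divergent coding neighbour or a snoRNA gene. No test was made over members, since 1 group with 2 replicates gives no comparison of conditions. The 2 samples are labelled biological replicates.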

Additional observations from a re-analysis of the deposited data

How the results depend on the processing

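Counts refer to ribosomal protein genes. Keeping the stronger 50% of the reproducible peaks gave 25 bound genes (30.9%), against 1.36% of all protein-coding genes. Of these 25, 12 were for the large subunit, with a large minus small difference of -17.9 points and a median position of -271 bp. Giving each peak only to the nearest coding start left 21 bound genes, 5 of them for the small subunit, a difference of 15.9 points and 12 genes with a divergent neighbour, by construction, since a shared summit then counts once. Leaving out a replicate gave 23 to 34 bound genes, 11 to 19 for the large subunit, 12 to 15 for the small, differences of -16.7 to -10.4 points, medians of -291 to -270 bp and 19 to 25 genes with a divergent neighbour, and the cause was not tested. Narrower and wider windows, the start codon as zero point and peak overlap gave 38 to 40 bound genes, against 2.04% to 3.27% of all protein-coding genes. No paired analysis was possible because there is only 1 group. Depth is unknown, and an unbound gene may lie below the threshold.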
